A study of Mus musculus with 6 samples.

Results

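The transcription factor p53 and a hand-written set of its known target genes were examined in cultured mouse cerebellar granule neurons (CGNs) given an inhibitor of EZH2. The members were 33 gene symbols fixed as a list by name. No measured value entered the rule, but the list was chosen with earlier results of these data known. All 33 were found among the 55341 genes of the count tables and all 33 passed the filter on low counts, which kept 16729 genes. The cultures came from granule neuron progenitors of P6-P8 CD1-IGS mouse cerebellum, and a biological replicate was a culture of pooled litters. Every culture, controls included, received the nucleoside analogue cytosine arabinoside (AraC) at DIV2 (day in vitro 2) to stop the division of non-neuronal cells. One group was given DMSO, the solvent control, and the other GSK-126, a small molecule inhibitor of the H3K27 methyltransferase EZH2, both at DIV3. RNA was collected at DIV5 according to the study's methods, although the sample labels name cerebellum and D3, and the dose used at DIV3 is not named in the sources used here. There were 3 libraries per group, numbered 1 to 3 in both, with 7407189 to 13092763 counts on genes, so the least expressed member, Casp1, still had 11 counts in its lowest library. Expression is given as CPM, counts brought to a common library total, scaled by TMM factors, which level the libraries for composition.

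p53 is held at low levels in unstressed cells because Mdm2 marks it for degradation and Mdm4 masks its activation domain. DNA damage and other stresses release it from both, and it then binds DNA as a tetramer and turns on genes for cell cycle arrest, DNA repair, apoptosis and metabolic adaptation, Mdm2 among them. In the developing cerebellum it is known for removing damaged granule neuron progenitors. In a bulk sample fewer expressing cells and less RNA per cell cannot be told apart, and this holds for every value below.

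The RNA carried the label's defining transcripts. Neurod1, a transcription factor of granule neurons, had 366 to 963 CPM across the 6 libraries, and Zic1 had 1085 to 1887 CPM. Atoh1, which marks dividing progenitors, reached at most 0.754 CPM, and the progenitor marker Gli1 at most 1.12 CPM. Other progenitor markers were higher, with 9.70 to 23.2 CPM of Mycn, 33.1 to 65.6 of Barhl2 and 121 to 229 of Ccnd1. The proliferation genes Mki67 and Top2a had 74.4 to 136 and 78.2 to 125 CPM. Transcripts of other cells were also abundant, with 787 to 3300 CPM of the astroglial gene Gfap and 2303 to 3716 CPM of the fibroblast collagen Col1a1. Per kilobase of exon, the mean DMSO levels of the p53 target genes were highest for Ccng1 with 73.0 CPM per kb, followed by Cdkn1a with 41.7, Ei24 with 32.7 and Sesn1 with 28.5 CPM per kb, and lowest for Pidd1 with 2.33 CPM per kb.

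The response element of p53 consists of adjacent half-sites of 10 bases, each with a core of C, an A or T, another A or T, and G. RefSeq promoter windows (GRCm38.p6, 250 bases before to 50 after a transcription start) were held for 25 of the 33 genes and were searched for the p53 half-site, whose consensus reads the same on both strands. An exact half-site stood in at least 1 window of 12 of these 25 genes (48%), against 2582 of 27025 genes in the whole promoter table (9.55%). Adjacent half-sites over 20 bases, with at most 1 mismatch and the C and G of both cores kept, were found for Cdkn1a, Ccng1 and Gtse1, 3 of 25 genes (12%) against 22 of 27025 (0.0814%). The matches near genes whose values are given by library below are shown to let the reader see what was matched. Capitals mark the matched bases, 5 flanking bases on each side are in lower case, and each is written 5′ to 3′ on the gene's strand.
Cdkn1a (chr17:29090923-29090952, plus strand, match at -51 to -32 from the start): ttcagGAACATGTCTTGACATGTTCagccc
Cdkn1a, a further half-site (chr17:29090901-29090920, plus strand, match at -73 to -64 from the start): ggtggGGACTAGCTTtctgg
Ccng1 (chr11:40755457-40755486, minus strand, match at -195 to -176 from the start): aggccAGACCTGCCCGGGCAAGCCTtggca
Mdm2 (chr10:117710930-117710949, minus strand, match at -186 to -177 from the start): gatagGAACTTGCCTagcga
Trp53 (chr11:69580279-69580298, plus strand, match at -75 to -66 from the start): cggaaGGACTTGCCCttact
Bax (chr7:45467085-45467104, minus strand, match at -201 to -192 from the start): atcccAGGCAAGCTTtgaac
Sesn1 (chr10:41887261-41887280, plus strand, match at -173 to -164 from the start): ccttcAAGCTTGTTTttgct
The first Cdkn1a sequence and that of Ccng1 hold adjacent half-sites and the other 5 hold single ones. The Sesn1 match lies before an internal RefSeq start, inside the gene as GENCODE annotates it. No match was found in the Mdm4 window, and Perp had no window in the table. A match is a description of letters and says nothing about whether p53 was bound in these cultures. The members were listed as known targets of p53, so their shares of matches are no independent evidence about the list.

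The comparison of GSK-126 with DMSO asked which transcripts responded when EZH2 was inhibited in postmitotic CGNs. Most p53 target genes had small differences, in both directions. By edgeR's quasi-likelihood test without a block, and with p-values adjusted over all genes by the Benjamini-Hochberg method, 0 of the 33 passed an adjusted p of 0.05, in a comparison that called 0% of all genes. At an unadjusted p under 0.05 there was 1 member, Perp, where 3.98% of all genes were. DESeq2's Wald test also called 0 of the 33, and 21 of the 29467 genes in its fit. The median log2 fold change of the 33 was 0.131, against -0.0071 over all genes tested, and 23 of 33 values were positive, against 48.8% of all genes. That median rested on single libraries. Leaving out GSK-126 replicate 3 or DMSO replicate 2 brought it to -0.054 and -0.013, and leaving out DMSO replicate 3 or GSK-126 replicate 2 raised it to 0.29 and 0.31.

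Libraries with the same replicate number deviated together, so the numbers pair the libraries, and a second fit took the replicate number as a block. With the block, 2 members rose, Perp and Cdkn1a, against 3.35% of all genes called higher, and 2 fell, Sesn1 and Mdm4, against 5.09% called lower. The count of 4 rested on which pairs were in the fit. Without pair 1 the block fit called 0 of the 33 and 6.45% of all genes. Without pair 2 it called 1, which was Plk2 (log2 fold change 0.33, adjusted p = 0.0358), and 4.95% of all genes. Without pair 3 it called 4, with Bbc3 (0.71, adjusted p = 0.000811) in place of Sesn1, and 7.56% of all genes. DESeq2 with the block called 0 of the 33 at an adjusted p under 0.05, against 3.27% of the 29476 genes in its fit. Its adjusted p was 0.0530 for Cdkn1a, 0.0558 for Sesn1, 0.0705 for Perp and 0.0870 for Mdm4. At an unadjusted p under 0.05, the edgeR fit with the block had 6 members higher and 3 lower, where 9.43% and 12.1% of all genes were. The plot of fold changes for all members shows how the block narrowed the standard errors while most estimates stayed in place.

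**Figure D1:**
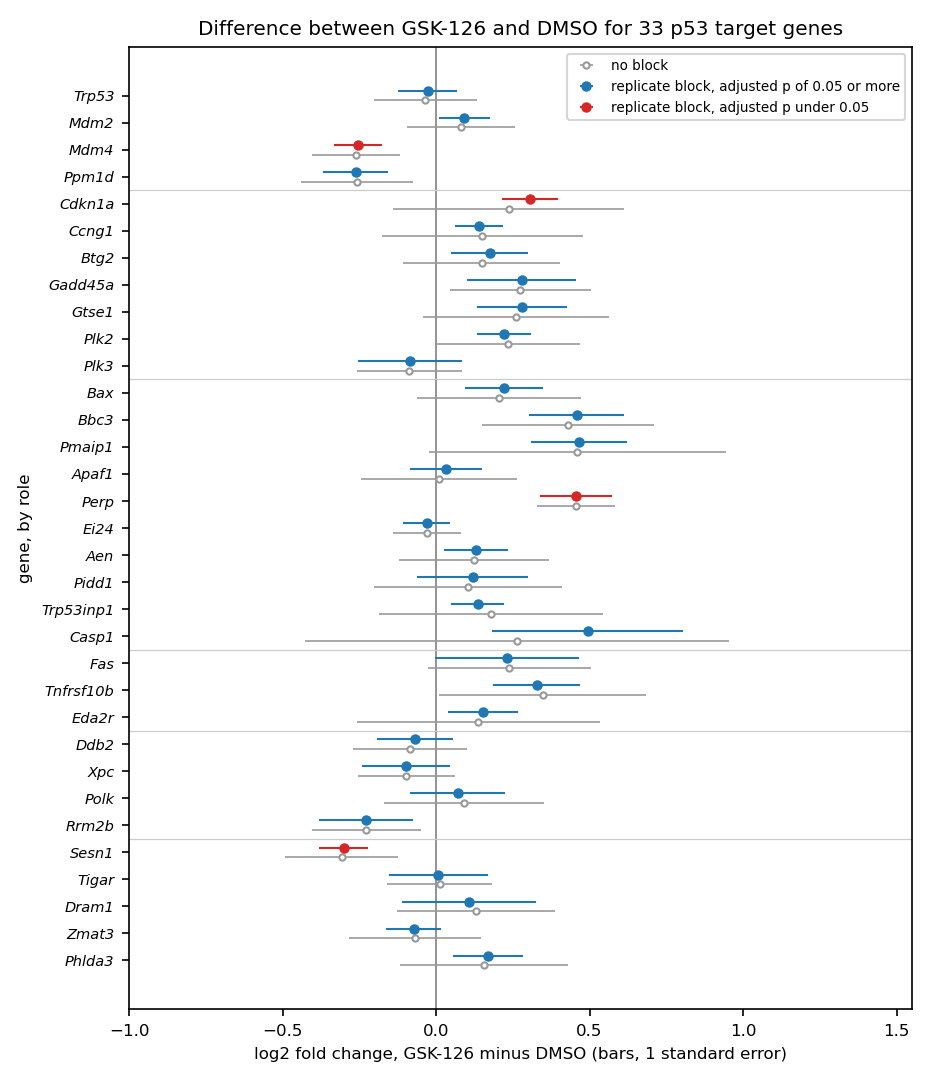
Log2 fold change of GSK-126 over DMSO for the 33 p53 target genes, ordered by role, with bars of 1 standard error. Open grey points are the fit without a block and filled points the fit with the replicate block, where red marks Mdm4, Cdkn1a, Perp and Sesn1 with an adjusted p under 0.05, none of which passed without the block.

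Within pairs of the same number, 9 of 33 members (27.3%) were higher with GSK-126 in all 3 pairs, against 19.5% of all genes, and 4 (12.1%) were lower in all 3, against 22.8%. The median difference of the members was 0.20 in pair 1, -0.0016 in pair 2 and 0.085 in pair 3 on the log2 scale. The GSK-126 libraries all lay above the DMSO libraries for 1 member, Perp, where 4.72% of all genes did so. They all lay below for 1 member, Mdm4, again against 4.72% of all genes.

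Of p53 itself and its feedback regulators, Mdm4 fell with the block and the other 3 did not pass. Trp53 (ENSMUSG00000059552.13, chromosome 11, 69580359 to 69591873, GRCm38), which encodes p53, had 63.1, 48.7 and 70.1 CPM in DMSO replicates 1, 2 and 3 and 65.6, 51.5 and 60.2 CPM in GSK-126 replicates 1, 2 and 3. The groups overlapped fully, and the log2 fold change of Trp53 was -0.03 (standard error 0.10) with the block. Reads of the pseudogene Trp53-ps could be shared with it.

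Mdm2 (ENSMUSG00000020184.15, chromosome 10, 117688875 to 117710758), the ubiquitin ligase that degrades p53 and is itself a p53 target, had 76.7, 80.6 and 111 CPM in controls and 89.7, 84.9 and 110 CPM after GSK-126. In both groups replicate 3 was the highest, and the difference was 0.09 (standard error 0.08) with the block. Mdm4 (ENSMUSG00000054387.13, chromosome 1, 132959484 to 133030561), the inhibitor that masks the activation domain of p53, had 160, 203 and 158 CPM in controls and 132, 157 and 147 CPM after GSK-126. All 3 treated libraries were below all 3 controls, and below their own partner by 0.28, 0.37 and 0.11 on the log2 scale. An exact two-sided permutation test gave p = 0.1, which 3 against 3 libraries cannot go below. The block fit put the difference at -0.25 on the log2 scale (standard error 0.08), with a Benjamini-Hochberg adjusted p of 0.0477 in edgeR's quasi-likelihood test and 0.953 when no block was used. Over all alternatives the adjusted p of Mdm4 ranged from 0.0345 to 1, and a pseudogene, Mdm4-ps, could share its reads. Ppm1d, the phosphatase that switches off p53 and its damage kinases, had 49.4 ± 7.42 CPM in controls and 41.3 ± 8.13 CPM after GSK-126 (SD, n = 3 each), lower in all 3 pairs but it did not pass with the block (edgeR, adjusted p = 0.151).

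Among the 7 genes of cell cycle arrest, Cdkn1a rose with the block and 6 of 7 fold changes were positive. Cdkn1a (ENSMUSG00000023067.14, chromosome 17, 29090976 to 29100727) encodes p21, the cyclin-dependent kinase inhibitor through which p53 arrests the cycle. It had 96.5, 108 and 239 CPM in controls and 127, 158 and 240 CPM after GSK-126. Replicate 3 stood far above the others in both groups and hardly differed between them, while the partners of pairs 1 and 2 differed by 0.39 and 0.54 on the log2 scale. The block fit gave 0.31 with a standard error of 0.09 (adjusted p = 0.0405), and the fit without it 0.24 with a standard error of 0.38 (adjusted p = 0.961, both by edgeR and Benjamini-Hochberg). Leaving pair 3 out of the block fit gave Cdkn1a an adjusted p of 0.00123, and leaving out pair 1 or pair 2 gave 0.117 and 0.282. Its direction turned to -0.06 when GSK-126 replicate 3 was left out of the fit without a block. Exons of AC167363.2 overlap 273 bp of it on the opposite strand, and the strand setting of the counting is not given in the sources used here.

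Ccng1 (ENSMUSG00000020326.7, chromosome 11, 40748552 to 40755311), the target that encodes cyclin G1, had 211, 195 and 363 CPM in controls and 260, 188 and 406 CPM after GSK-126. Here too replicate 3 was the highest of each group, and the groups overlapped. The difference was 0.14 (standard error 0.08, adjusted p = 0.312 with the block, edgeR). The other members of this role had log2 fold changes with the block between -0.08 for Plk3 and 0.28 for Gadd45a and Gtse1, and none passed. Gadd45a binds PCNA and slows the G2/M transition, and 337 bp of its exons (19.1%) lie under exons of E230016M11Rik on the opposite strand.

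Of the 10 genes of the mitochondrial and effector steps of apoptosis, 9 had positive fold changes and Perp rose with the block. Perp (ENSMUSG00000019851.8, chromosome 10, 18845020 to 18857073) encodes a membrane protein of desmosomes that p53 induces in apoptosis. It had 27.0, 24.9 and 26.0 CPM in controls and 37.1, 34.1 and 35.5 CPM after GSK-126. All 3 treated libraries lay above all 3 controls (p = 0.1 in an exact two-sided permutation test, its lower bound), with pair differences of 0.46, 0.45 and 0.45 on the log2 scale. Its level was even across replicate numbers. Both fits put it at 0.46 on the log2 scale, with a standard error of 0.12 and an adjusted p of 0.0186 in the block fit and 0.13 and 0.953 in the other (edgeR, Benjamini-Hochberg). Its adjusted p ranged from 0.0186 to 1 over the alternatives, and the block fits without pair 1 or pair 2 gave 0.0674 and 0.0671.

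Bax (ENSMUSG00000003873.11, chromosome 7, 45461697 to 45466898), the BCL-2 family protein that opens the outer mitochondrial membrane, had 39.2, 20.8 and 34.9 CPM in controls and 36.4, 28.0 and 45.1 CPM after GSK-126. Replicate 2 was the lowest in both groups, the groups overlapped, and Bax did not pass (0.22, standard error 0.13, adjusted p = 0.333 with the block, edgeR). Bbc3, which encodes the BH3-only protein PUMA, had 25.1 ± 8.33 CPM in controls and 33.7 ± 7.39 CPM after GSK-126 (SD, n = 3 each). Pmaip1, which encodes the BH3-only protein NOXA, had 13.9 ± 7.6 and 19.3 ± 10.6 CPM (SD, n = 3 each) and was higher with GSK-126 in all 3 pairs. The fold changes of Bbc3 and Pmaip1 were both 0.46 with the block, with adjusted p of 0.0744 and 0.0737 (edgeR). The remaining members, among them Apaf1, the scaffold of the apoptosome, and Trp53inp1, a cofactor that favours the apoptotic targets, ranged from -0.03 for Ei24 to 0.49 for Casp1, and none passed.

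**Figure D2:**
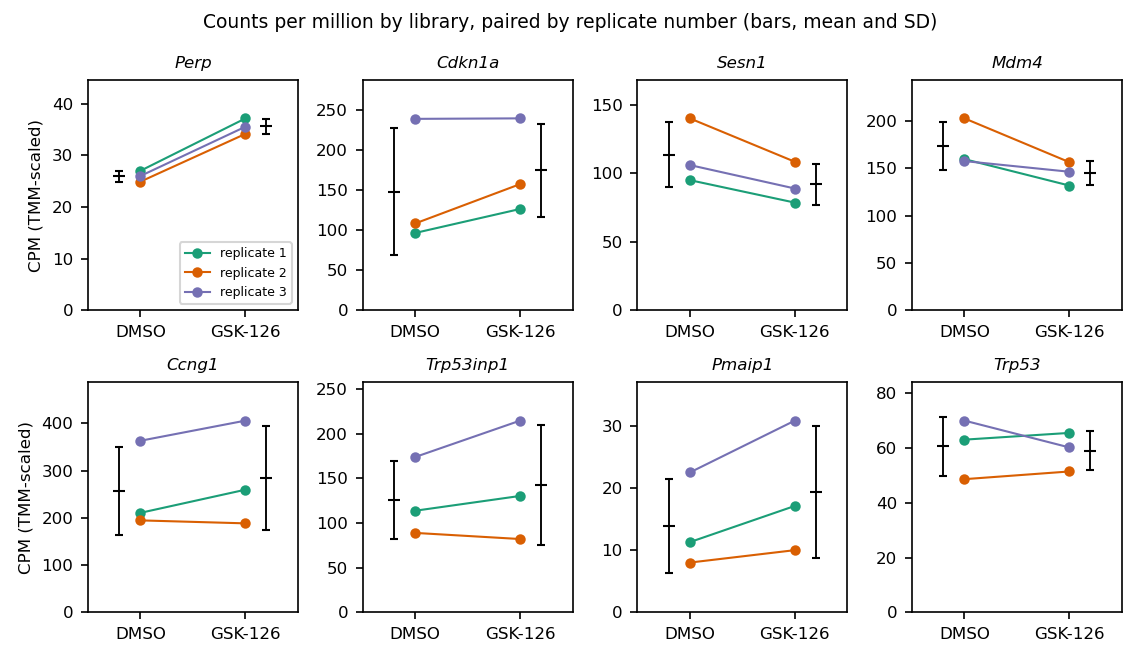
CPM of 8 genes in each library, with DMSO on the left and GSK-126 on the right of each panel, lines joining libraries of the same replicate number, and black bars for the mean and SD of 3. Perp was 24.9 to 27.0 CPM in controls and 34.1 to 37.1 CPM after GSK-126, while Cdkn1a, Ccng1, Trp53inp1 and Pmaip1 were highest in replicate 3 of both groups.

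The death receptors gave positive values and no call. With the block the log2 fold changes were 0.23 (standard error 0.23) for Fas, 0.33 (standard error 0.14) for Tnfrsf10b, the mouse TRAIL receptor, and 0.15 (standard error 0.11) for Eda2r, a receptor of ectodysplasin on the X chromosome. Of the 4 genes of DNA repair and nucleotide supply 3 had negative values, and the 4 ran from -0.23 (standard error 0.15) for Rrm2b, the p53-inducible subunit of ribonucleotide reductase, to 0.07 (standard error 0.15) for the translesion polymerase Polk. Ddb2 and Xpc, which recognise lesions in nucleotide excision repair, were at -0.07 and -0.10, and 652 bp of Ddb2 exons (23.8%) overlap Acp2 on the opposite strand. None of these 7 passed.

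Among the 5 genes of metabolism, autophagy and survival signalling, Sesn1 fell with the block. Sesn1 (ENSMUSG00000038332.13, chromosome 10, 41809935 to 41908424), a sestrin that restrains mTORC1 and limits peroxides, had 94.9, 140 and 106 CPM in controls and 78.5, 108 and 88.8 CPM after GSK-126. The groups overlapped because GSK-126 replicate 2 lay above 2 of the controls, but each treated library was below its partner, by 0.27, 0.37 and 0.25 on the log2 scale. The block fit gave -0.30 with a standard error of 0.08 (adjusted p = 0.0215), and the fit without it -0.31 with a standard error of 0.18 (adjusted p = 0.953, both by edgeR and Benjamini-Hochberg). Its adjusted p with the block was 0.127, 0.101 and 0.0553 when pair 1, 2 or 3 was left out. Tigar, Dram1, Zmat3 and Phlda3 had values between -0.07 and 0.17 and did not pass.

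Summed CPM of 10 granule neuron markers was 3928, 6424 and 4419 with DMSO and 3069, 4945 and 3295 with GSK-126, lower in every pair, as Sesn1 and Mdm4 were. Summed CPM of 8 mural and fibroblast markers was 7497, 8085 and 10084 with DMSO and 9273, 8583 and 10941 with GSK-126, higher in every pair, as Perp and Cdkn1a were. Sums of microglia and macrophage, oligodendrocyte lineage and granule progenitor markers were also higher with GSK-126 in every pair, and those of GABAergic and Purkinje markers lower. Single markers did not all follow the sum of their list. With the block, the granule neuron gene Barhl1 was at 0.33 and the progenitor gene Barhl2 at -0.45 on the log2 scale. Of the GABAergic and Purkinje list Calb1 and Pvalb were at 0.45 and 0.51. Of the oligodendrocyte lineage Pdgfra, Olig1 and Sox10 were at -0.11, -0.05 and -0.44. No gene of these lists was at 0 in all libraries. The part of these cells in the differences of Sesn1, Mdm4, Perp and Cdkn1a was not tested.

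Differences between replicate numbers ran through the p53 target genes more widely than differences between treatments. In a test chosen after the data were seen, of the replicate number with treatment in the fit (edgeR's quasi-likelihood F test), 23 of 33 members (69.7%) passed an adjusted p of 0.05, against 31.4% of all genes. Replicate 3 was the highest number for 23 members and replicate 2 the lowest for 22, where the corresponding shares of all genes were 25.4% and 38.2%. On the log2 scale the median member was 0.39 above the mean of the other numbers in replicate 3 and 0.36 below it in replicate 2. The medians over all genes were -0.017 and 0.015. The range over replicate numbers was larger than the treatment difference for 29 of the 33, but the same held for 84.0% of all genes. The 4 exceptions were Perp, Gadd45a, Xpc and Rrm2b. Under the other scalings, filters, tests and left-out libraries, between 17 and 22 of the 33 passed, against 18.8% to 33.6% of all genes. Among the left-out libraries DMSO replicate 2 lowered the count most, to 17, against 23.7% of all genes.

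**Figure D3:**
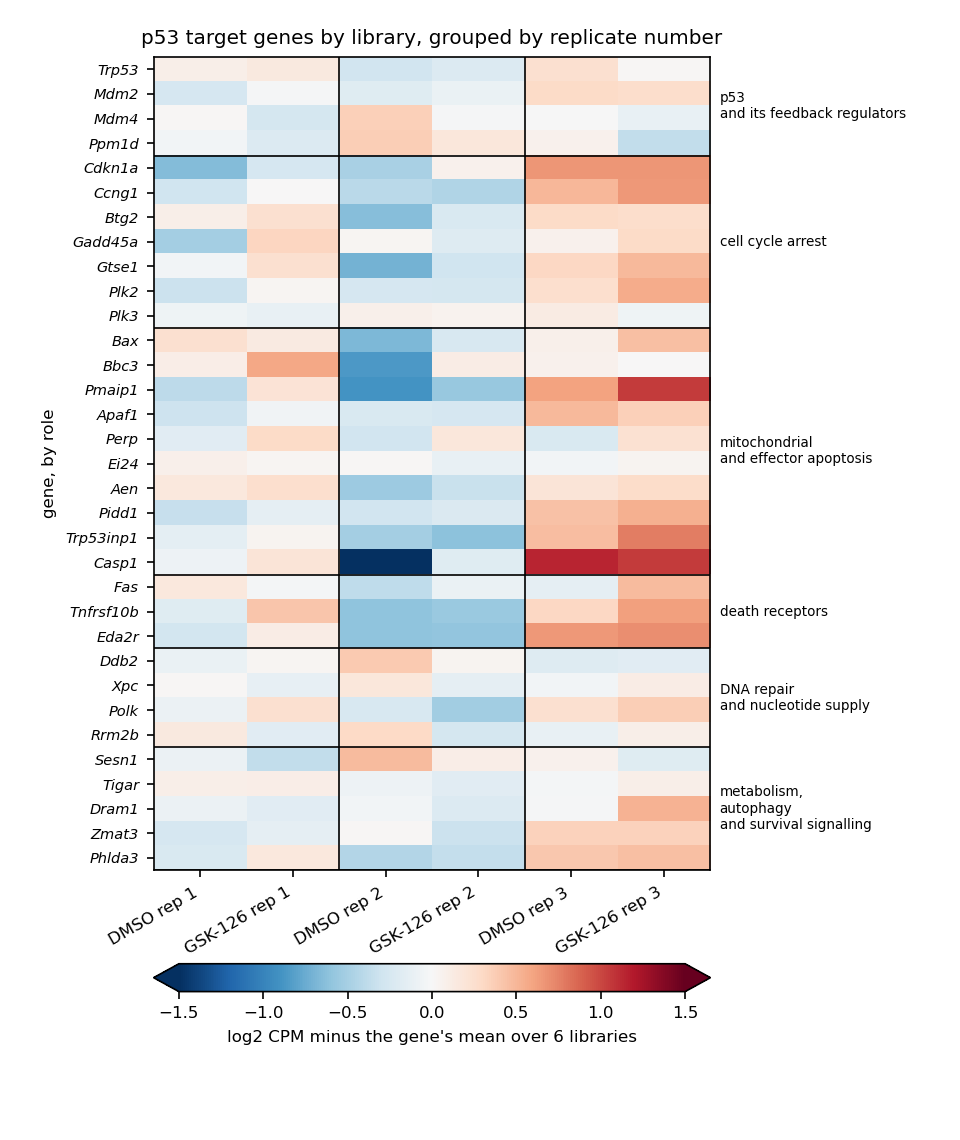
Log2 CPM of each p53 target gene minus its mean over the 6 libraries, in columns grouped by replicate number and rows grouped by role, with red above and blue below the mean. Most rows of the arrest, apoptosis and death receptor groups are red in both libraries of replicate 3 and blue in both of replicate 2, and Sesn1, Mdm4 and Ppm1d are highest in DMSO replicate 2.

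Several members that passed had wide differences between numbers. Cdkn1a was 0.99 above the other numbers in replicate 3 (adjusted p = 3.24e-07 for the replicate number, edgeR with Benjamini-Hochberg adjustment). Ccng1 was 0.86 above (adjusted p = 2.70e-07) and Trp53inp1 0.92 above (adjusted p = 2.38e-07). Pmaip1 was 1.22 above in replicate 3 and 1.08 below in replicate 2, with a 3.85-fold span from the lowest to the highest library. Eda2r was 1.01 above in replicate 3 and 0.89 below in replicate 2. The widest span was that of Casp1, the inflammatory caspase, 9.66-fold on few counts.

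Not every member followed. Bbc3 passed (adjusted p = 0.0231, edgeR) with replicate 1 the highest, 0.50 above the others, and replicate 3 only 0.06 above. Trp53 was 0.19 above in replicate 3 and 0.37 below in replicate 2, a smaller span than most of its targets. Mdm4, Ppm1d and Sesn1 passed with replicate 2 as the highest number, 0.26, 0.40 and 0.43 above the others. Perp, Ei24, Xpc, Rrm2b, Tigar and Plk3 did not pass for the replicate number (adjusted p between 0.670 and 0.977, edgeR), and their libraries spanned 1.14-fold to 1.49-fold. Gadd45a, Fas, Ddb2 and Dram1 did not pass either (adjusted p between 0.0946 and 0.608, edgeR).

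**Figure D4:**
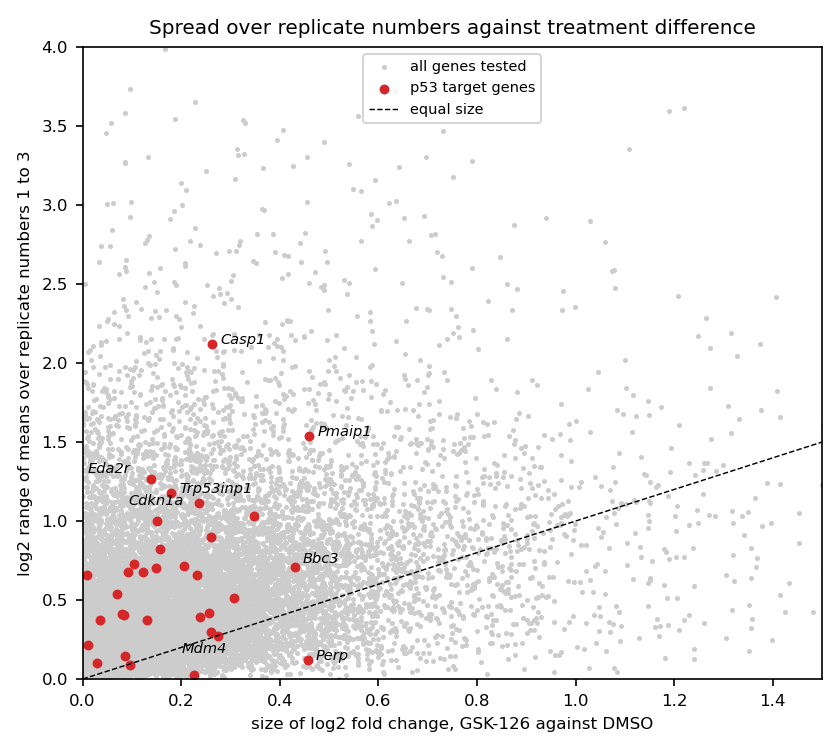
For each gene tested, the size of the log2 fold change between GSK-126 and DMSO (horizontal axis, fit without a block) against the log2 range of its mean levels over replicate numbers 1 to 3 (vertical axis), with the 33 p53 target genes in red and a dashed line of equal size, and 61 genes beyond the axes. Of the red points, 29 lie above the line, with Casp1 and Pmaip1 the farthest up and Perp below it.

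Marker transcripts of several cell types also moved with the replicate number. Summed CPM of 7 astroglial markers was 7612, 2377 and 4212 in DMSO replicates 1, 2 and 3 and 7936, 2338 and 4196 in the GSK-126 ones, lowest in replicate 2 and highest in replicate 1. The sums of 10 microglia and macrophage markers were 554, 280 and 497 CPM in controls and 689, 367 and 566 CPM after GSK-126, again lowest in replicate 2. The sums of granule neuron markers, given above, were highest in replicate 2, and those of mural and fibroblast markers highest in replicate 3. Of the mural and fibroblast list, Dcn and Lum averaged highest in replicate 1 instead, 0.58 and 0.47 above the other numbers on the log2 scale. The 8 proliferation markers summed to 402, 291 and 321 CPM in controls and 443, 268 and 351 CPM after GSK-126, lowest in replicate 2. The sum of 5 endothelial markers was lowest in replicate 2 and highest in replicate 3 of both groups. It was 61.9, 54.6 and 77.6 CPM in controls and 74.2, 41.7 and 76.5 CPM after GSK-126. Most of that sum was Cdh5, with 51.8, 41.0 and 61.6 CPM in controls and 54.6, 26.5 and 55.7 CPM after GSK-126. Not every endothelial marker followed, since Flt1 was lowest in DMSO replicate 1 (3.23 CPM) and Pecam1 in GSK-126 replicate 3 (1.07 CPM). Granule progenitor sums were highest in replicate 3 of both groups (185 to 282 CPM over the 6 libraries). Most of each sum was Ccnd1 (121 to 229 CPM). Barhl2 was highest in replicate 2 of both groups (65.6 and 52.9 CPM), Mycn had no shared order, and Atoh1 and Gli1 were near 0. Oligodendrocyte lineage sums were lowest in replicate 2 (433 to 762 CPM). Sox10, Olig1 and Olig2 of that list were instead highest there, 1.28, 0.70 and 1.01 above the other numbers on the log2 scale. Sums of GABAergic and Purkinje markers were 162 to 243 CPM, with no shared order. The part of these cells in the replicate pattern of the p53 target genes was not tested. What set the numbers apart, such as litter, dissection or day of culture, is not given in the sources used here and cannot be told apart.

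The wider p53 pathway was read from a second list of 70 genes, of which 69 were tested. With no block 0 of the 69 passed by edgeR, which called 0% of all genes. DESeq2 without a block also called 0 of them, and 21 of the 29467 genes in its fit. In edgeR 4 had an unadjusted p under 0.05, where 3.98% of all genes did. With the block 4 rose and 4 fell, against 3.35% and 5.09% of all genes, and DESeq2 with the block called 5 of these 8, against 3.27% of all genes in its fit. The rises included those of Thbs1, the matrix glycoprotein thrombospondin 1 (0.50, standard error 0.09), Rprm, which encodes the G2 arrest protein reprimo (0.66, standard error 0.15), and Cdkn2a (0.81, standard error 0.20). Cdkn2a encodes INK4A and ARF, an inhibitor of Mdm2, from a locus that is a textbook target of Polycomb repression. It had 5.19, 5.03 and 8.52 CPM in controls and 9.47, 8.29 and 15.2 CPM after GSK-126, higher in each pair (adjusted p = 0.0154 with the block, edgeR), and DESeq2's filter gave it no adjusted p.

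The falls were in the p53-induced gene Trp53i11 (-0.53, standard error 0.09), Cyfip2, a subunit of the WAVE complex (-0.33, standard error 0.07), Sesn3, another sestrin (-0.27, standard error 0.08), and Prkdc, the catalytic subunit of DNA-dependent protein kinase (-0.45, standard error 0.13). Trp53i11 had 118, 104 and 109 CPM in controls and 76.4, 86.9 and 66.3 CPM after GSK-126, with no overlap. Its adjusted p was 0.000871 with the block in edgeR and 0.000690 with the block in DESeq2. Sesn3 and Prkdc did not pass in DESeq2 with the block (adjusted p = 0.0506 and 0.126). For the replicate number, 30 of the 69 (43.5%) passed, against 31.4% of all genes. They were 24 of the 40 further p53 targets (60%), 2 of 15 damage sensing genes (13.3%) and 4 of 14 family members, cofactors and ligases (28.6%). Against the other numbers, the median of the further targets was -0.39 in replicate 2 and 0.33 in replicate 3 on the log2 scale.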

How the data were processed

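Polyadenylated RNA of 6 libraries was sequenced, 3 per group. The authors trimmed reads with Trimmomatic 0.38, aligned them to mm10 with STAR 2.7.2b, used HTSeq to count the reads on exons, and deposited the raw, unnormalized counts of each gene. The strand setting is not given in the sources used here. The last 5 lines of each table name no gene, held 58.7% to 60.7% of reads and were left out. No library was a copy of another.

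Groups came from the labels. Counts were tested in R 4.3.3 with edgeR 4.0.16 (TMM, filterByExpr, quasi-likelihood test, Benjamini-Hochberg adjusted p under 0.05 over all 16729 genes tested). The biological coefficient of variation, the spread between cultures beyond counting error, was 24.0% without a block and 9.74% with it. Deviations from the group means correlated across genes at 0.56, 0.63 and 0.49 between libraries of the same number and at 0.0064 or less otherwise, so the numbers were taken as pairs. DESeq2 1.42.0, other scalings, filters and left-out libraries were alternatives. The scripts were tested on simulated data. Standard errors were taken from the fits, and depth limits the genes with few counts most.

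Values by library are given for Trp53, Mdm2, Cdkn1a, Ccng1 and Bax, for members that passed in either fit and for members whose groups did not overlap. Pathway genes are named where they passed, smallest p with the block first. The result of 1 pathway gene is not reported here. Values by library of Cdkn2a and Trp53i11 were chosen after they were seen. The members, the pathway and marker lists and the tests were chosen with earlier results of these data known. Coordinates and exon overlaps are from GENCODE M21, whose symbols match all 55341 of the tables.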

Additional observations from a re-analysis of the deposited data

How the results depend on the processing

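Without the block, edgeR called 0% of all genes under upper-quartile scaling, total counts and a minimum of 10 in every library. It also called 0% with each library left out, and 0.0339% with no filter on counts. DESeq2 called 0.0713% of all genes in its fit without the block and 3.27% with it. Where 0% of all genes passed, a count of 0 is not particular to the members. The count of 33 p53 target genes called stayed at 0 under all of these settings and at an adjusted p under 0.01. It was 4 with the replicate block (8.44% of all genes called), 1 and 4 with the block when pair 2 or pair 3 was left out (4.95% and 7.56%), and 0 without pair 1 (6.45%) or at an adjusted p under 0.01 with the block, an alternative chosen after the data were seen. Pathway calls rose from 0 to 8 with the block (8.44% of all genes called) and to 5 with the block in DESeq2 (3.27%). With pair 1, 2 or 3 left out of the block fit 7 passed each time, where 6.45%, 4.95% and 7.56% of all genes did. At an adjusted p under 0.01 with the block 5 passed, and the share of all genes was not counted there. The median log2 fold change of the p53 target genes ran from -0.054 to 0.31 with 1 library left out and stayed between 0.073 and 0.17 under the other alternatives. Members with groups that did not overlap fell from 2 to 1 under upper-quartile scaling and under total counts, where 9.59% and 9.67% of all genes did not overlap. They ran from 2 to 9 with 1 library left out, where 14.3% to 29.2% of all genes did not overlap, with 29.2% beside the 9 without GSK-126 replicate 2. This count comes from no fit, so the block and DESeq2 gave it no value. With 1 library left out, 21 members took both signs: -0.17 to 0.084 for Trp53, -0.036 to 0.27 for Mdm2, -0.061 to 0.77 for Cdkn1a, -0.19 to 0.49 for Ccng1, -0.076 to 0.35 for Btg2, -0.020 to 0.44 for Plk2, -0.020 to 0.40 for Bax, -0.037 to 1.00 for Pmaip1, -0.18 to 0.31 for Apaf1, -0.057 to 0.034 for Ei24, -0.079 to 0.31 for Aen, -0.17 to 0.41 for Pidd1, -0.24 to 0.49 for Trp53inp1, -0.22 to 1.23 for Casp1, -0.22 to 0.60 for Eda2r, -0.20 to 0.12 for Ddb2, -0.074 to 0.33 for Polk, -0.026 to 0.11 for Tigar, -0.14 to 0.27 for Dram1, -0.28 to 0.10 for Zmat3 and -0.038 to 0.45 for Phlda3. The sign also turned in block fits without pair 1 for Apaf1 (-0.060) and Polk (-0.049), without pair 2 for Ei24 (0.019), Ddb2 (0.082), Xpc (0.013) and Zmat3 (0.062), and without pair 3 for Trp53 (0.069), Tigar (-0.042) and Dram1 (-0.12). Ei24 turned to 0.0050 under upper-quartile scaling and 0.0044 under total counts. The cause of these turns was not tested, and none of these members passed in the fit without a block. A fit that leaves 2 libraries in a group takes its spread from all 5.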
